A study of Mus musculus with 10 samples.

Results

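Transcripts of 42 genes of glucose uptake, glycolysis, lactate handling and glycogen metabolism were followed in the posterior wall of the mouse left ventricle. The genes were chosen by symbol, through the RefSeq accessions of the 24160 gene rows of the deposited table, and each matched 1 row. They fall into 24 genes of glycolysis and its transporters, 5 genes that set the level of fructose 2,6-bisphosphate (the Pfkfb enzymes and Tigar), and 13 genes of glycogen metabolism. The libraries came from 6 MC4R-/- samples, which lack the melanocortin 4 receptor, a brain receptor known for its role in appetite and energy balance, and from 4 wild type (WT) samples. Both groups were C57BL6/J mice from heterozygous crosses, kept at 24 °C to an age of 30 weeks, and poly(A) RNA was sequenced. The series title ties the receptor's loss to dilated cardiomyopathy. The labels state neither the MC4R allele nor whether every library had its own mouse, so p-values reflect the spread among libraries, which may be technical.

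Glucose enters heart muscle cells mainly through GLUT4 and GLUT1, is trapped by hexokinase and is committed to glycolysis by phosphofructokinase, the step that fructose 2,6-bisphosphate stimulates. Pyruvate is then oxidised in mitochondria or exchanged with lactate by lactate dehydrogenase and the monocarboxylate carriers. The adult heart burns mostly fatty acids and uses glycolysis and its glycogen store as flexible sources, with glycogen built by glycogen synthase and broken down by glycogen phosphorylase. Several steps have a muscle isozyme and a widely expressed isozyme, so the ratio of isozymes within a library is a further readout.

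Promoters are shown for the member with the smallest p of each of the 3 lists (Pfkfb2, Eno3 and Pgm1) and for Ldha, which held the most matches to the motif searched. Each line gives the 250 bases before a transcription start, 5′ to 3′ on the gene's strand, from RefSeq on GRCm38.p6. Capitals mark ACGTG, the core letters of hypoxia response elements, and its reverse complement CACGT. Where both overlap they form CACGTG, the E-box that carbohydrate-responsive factors are known to bind.
Pfkfb2, chr1:130715822-130716071, minus strand: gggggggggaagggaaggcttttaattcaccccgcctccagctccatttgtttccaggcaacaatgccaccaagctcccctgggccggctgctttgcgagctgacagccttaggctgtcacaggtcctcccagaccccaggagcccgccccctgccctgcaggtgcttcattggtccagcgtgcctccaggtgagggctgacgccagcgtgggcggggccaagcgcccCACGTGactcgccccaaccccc
Eno3, chr11:70656926-70657175, plus strand: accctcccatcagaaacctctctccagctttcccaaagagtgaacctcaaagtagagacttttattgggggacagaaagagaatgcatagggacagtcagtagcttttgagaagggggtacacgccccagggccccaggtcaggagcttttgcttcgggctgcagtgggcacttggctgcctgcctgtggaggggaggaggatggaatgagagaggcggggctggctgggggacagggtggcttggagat
Pgm1, chr4:99929201-99929450, plus strand: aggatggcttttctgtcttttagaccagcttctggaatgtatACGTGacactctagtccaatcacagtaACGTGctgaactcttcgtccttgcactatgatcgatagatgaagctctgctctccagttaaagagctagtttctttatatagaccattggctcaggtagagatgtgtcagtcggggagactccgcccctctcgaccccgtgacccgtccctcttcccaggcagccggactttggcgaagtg
Ldha, chr7:46845554-46845803, plus strand: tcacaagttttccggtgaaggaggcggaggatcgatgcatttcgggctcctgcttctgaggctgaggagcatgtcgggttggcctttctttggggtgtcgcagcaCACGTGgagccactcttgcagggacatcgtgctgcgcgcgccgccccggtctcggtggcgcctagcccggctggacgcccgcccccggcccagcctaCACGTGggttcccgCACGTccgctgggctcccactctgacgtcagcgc
The table lists 3 starts for Pfkfb2 and 2 for Ldha, and for each the window with the most matches is shown. Of the windows not shown, 1 of Pfkfb2 and 1 of Ldha held no match. The motifs were counted on both strands from 250 bases before to 50 bases after each start. Of 59 promoters listed for 41 of the 42 members, 26 (44.1%) held ACGTG and 7 of the 59 held CACGTG. Among all 32851 promoters listed, 6447 (19.6%) held ACGTG and 2349 (7.15%) held CACGTG. Windows of the same gene can overlap, as for Aldoa, so a match can count more than once. The Ldha window shown held CACGTG at 2 places, the Pfkfb2 window at 1 place, and the Eno3 window held no match. These matches describe letters and not binding sites.

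Levels are given as normalized counts, which are reads per gene divided by a factor for each library. Depth was 5559877 to 6408864 reads in MC4R-/- libraries and 4145033 to 6425785 in WT libraries, with WT replicate 3 the shallowest. Mc4r itself had 4 reads over the MC4R-/- libraries and 2 over the WT libraries, so it cannot check the labels. WT replicate 2 stood apart, with T-cell markers (6 genes) summing to 874.7, against 8.71 to 26.9 in MC4R-/- libraries and 18.0 to 40.4 in the other WT libraries. The same library had 133.6 normalized counts of Xist, against 0 to 4.13 in MC4R-/- libraries and 1.38 to 7.92 in the other WT libraries, while Y-linked genes were present in all 10 libraries. MC4R-/- replicate 5 had the highest sum of 4 atrial markers, 3155, against 539 to 943 in the other MC4R-/- libraries and 504 to 1338 in WT libraries. Cardiomyocyte markers summed to 411616 to 466645 in MC4R-/- and 430933 to 480141 in WT libraries, with higher means in MC4R-/- for 2 of 8 genes. Smooth muscle markers summed to 802 to 1404 in MC4R-/- and 1092 to 1475 in WT libraries, with higher means in MC4R-/- for 0 of 4. Macrophage markers summed to 1035 to 1317 in MC4R-/- and 789 to 1031 in WT libraries, with higher means in MC4R-/- for 5 of 6 genes. Fibroblast markers summed to 5426 to 6165 in MC4R-/- and 4669 to 5574 in WT libraries, with higher means in MC4R-/- for all 6. Skeletal muscle markers, of which Myh2 and Myh4 had 0 counts in all libraries and Acta1 and Ckm are also heart genes, summed to 10891 to 18904 in MC4R-/- libraries, highest in replicate 3, and 9703 to 13724 in WT libraries. The part of these markers in the members' values was not tested, and in bulk tissue fewer cells of a type and less RNA per cell cannot be told apart.

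In MC4R-/- ventricles most transcripts of glycolysis and glycogen metabolism were at levels close to those of WT ventricles, as were most genes. Of 41 members tested (Aldoc was too low), 35 had a fold change below 1.2 in either direction, as did 77.3% of all genes tested. The mean was lower in MC4R-/- for 20 of 41 members, where the background is 51.6%. Among glycolysis genes 9 were higher and 14 lower (median log2 fold change -0.03). Among glycogen genes 10 were higher and 3 lower (median 0.07), against a median of -0.01 over all genes. The sign of 13 of the 41 members changed under an alternative processing, so no direction of a list is read from these counts. The clearest differences were lower Pfkfb2, Eno3 and Slc2a1 and higher Pfkl, Pgm1 and Ldha in MC4R-/-, none of which passed the test. By limma with Benjamini-Hochberg adjustment over 14611 genes at a threshold of 0.05, 0 of 41 members passed, where 0.459% of all genes tested did (0.287% higher and 0.171% lower). An unadjusted p below 0.05 was found for 6 members, where the background is 9.6%; 3 were higher (background 5.19%) and 3 lower (background 4.41%). edgeR on whole reads called 0 members (background 0.342%), and DESeq2 called 1, Pfkfb2 (background 0.835%). Libraries of the groups overlapped for all 42 members, where 2.28% of the genes tested showed no overlap.

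**Figure D1:**
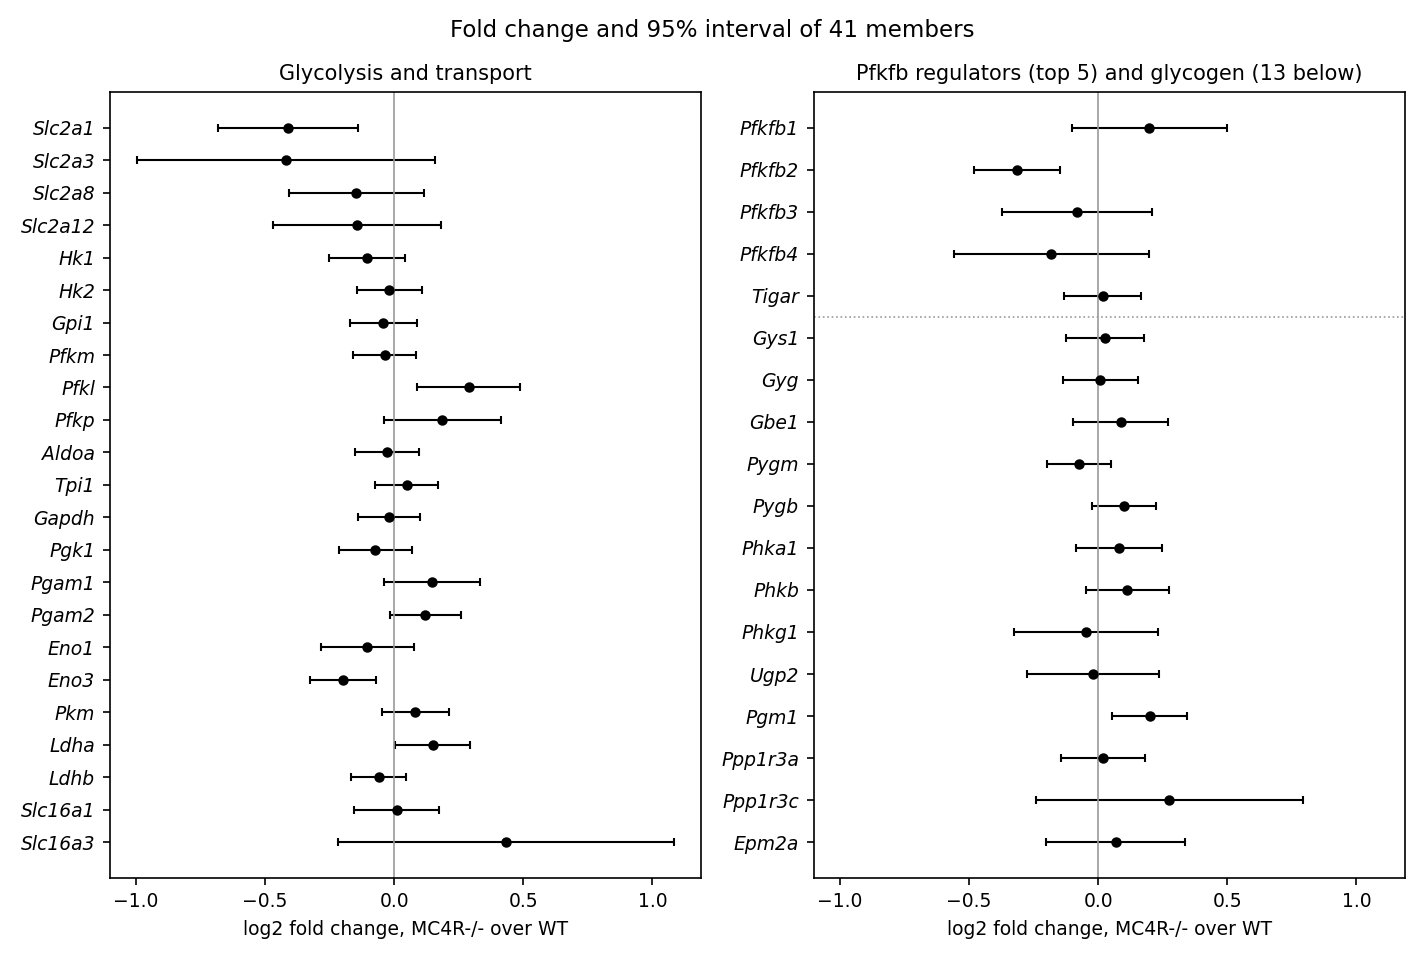
Log2 fold change (MC4R-/- over WT, x axis) with its 95% interval from limma for the 41 members tested, in pathway order down the page (y axis), glycolysis and transport on the left and Pfkfb regulators above glycogen genes on the right. The intervals of Slc2a1, Eno3 and Pfkfb2 lie below 0 and those of Pfkl, Ldha and Pgm1 above 0, before adjustment for the number of genes tested.

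The glycolysis list was led by Gapdh, Aldoa and Ldhb when levels were compared per kilobase of transcript. Gapdh, which oxidises glyceraldehyde 3-phosphate, had 14102 normalized counts per kb in MC4R-/- and 14336 in WT. Aldoa, the muscle aldolase, had 10422 per kb in MC4R-/- and 10679 in WT, and Ldhb, the heart-type lactate dehydrogenase subunit, had 8159 in MC4R-/- and 8515 in WT. Near the bottom were the neuronal-type glucose transporter Slc2a3 (3.97 per kb in MC4R-/- and 5.36 in WT) and the lactate exporter Slc16a3 (4.59 in MC4R-/- and 3.39 in WT). Aldoc, the brain aldolase, had 0, 0, 2, 2, 1 and 0 reads in MC4R-/- replicates 1 to 6 and 1, 1, 2 and 0 reads in WT replicates 1 to 4. Its mean was too low for the main fit. Together the 42 members held 2.19 to 2.27% of reads in MC4R-/- libraries and 2.05 to 2.32% in WT libraries.

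**Figure D2:**
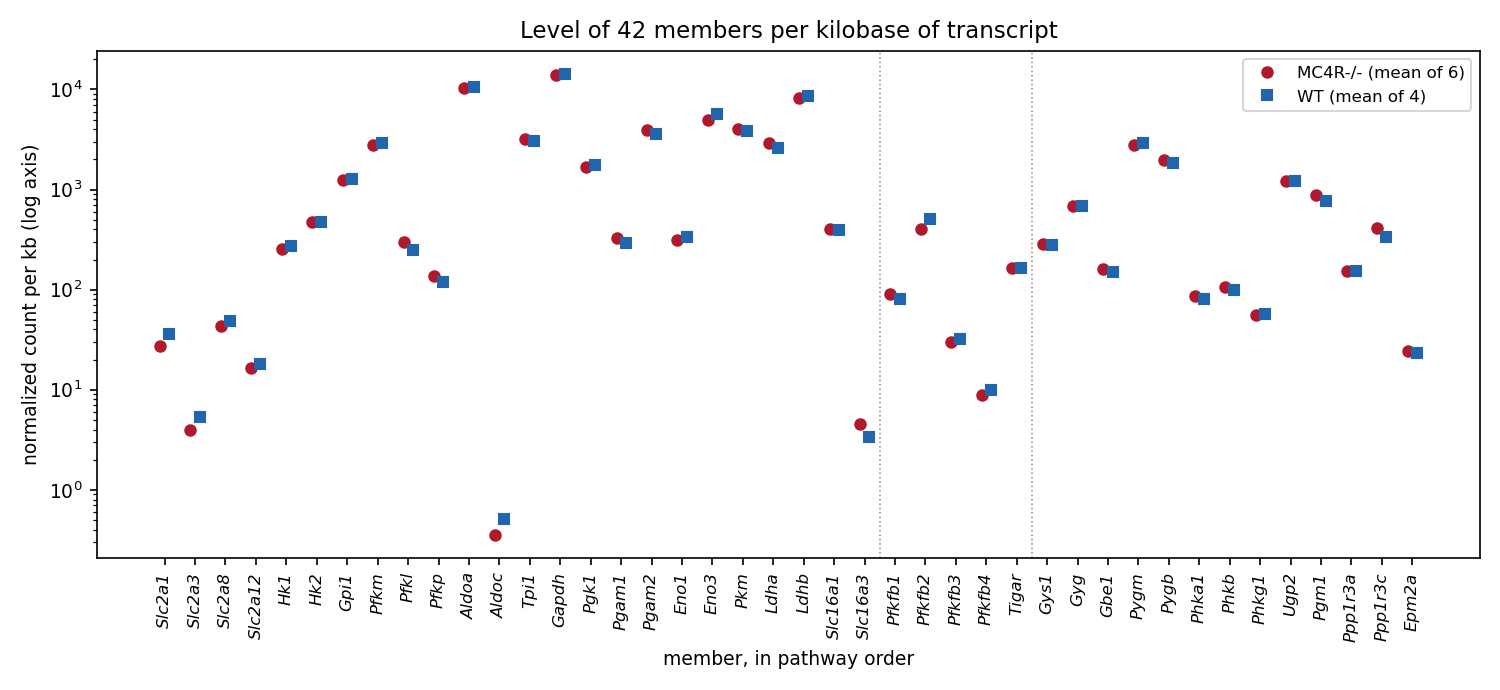
Mean normalized count per kilobase of transcript (y axis, log scale) for the 42 members in pathway order (x axis), circles for the mean of 6 MC4R-/- libraries and squares for the mean of 4 WT libraries, with dotted lines between the 3 lists. The paired marks nearly coincide across a range from Aldoc (0.356 in MC4R-/- and 0.516 in WT) to Gapdh (14102 in MC4R-/- and 14336 in WT).

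Among glucose transporters, Slc2a1 (GLUT1, the basal transporter; chromosome 4, 119108745 to 119137330, GRCm38.p6) had the smallest p. Its normalized counts were lowest 69.2, median 88.6 and highest 114 in MC4R-/- libraries, against 131, 123, 107 and 108 in WT replicates 1 to 4. All MC4R-/- libraries but replicate 5 lay below every WT library. The means were 88.5 ± 15.7 in MC4R-/- and 117 ± 11.7 in WT (SD, n = 6 and 4). The log2 fold change of -0.41 ± 0.13 (SE) is a difference of -24.9% with a 95% interval of -37.8 to -9.38%, and limma gave an adjusted p = 0.22. Leaving out each library in turn, the log2 fold change of Slc2a1 ran from -0.49 to -0.35 (limma adjusted p from 0.0832 to 0.412). Slc2a3 (-0.42 ± 0.28), the intracellular transporter Slc2a8 (-0.15 ± 0.13) and Slc2a12 (-0.14 ± 0.16) also had lower means in MC4R-/-, each with an interval that spans 0. Without WT replicate 2 the log2 fold change was -0.19 for Slc2a3 and -0.05 for Slc2a8, and without WT replicate 1 it was -0.06 for Slc2a12.

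Libraries of the groups overlapped broadly for hexokinase, the entry step. Hk2, the insulin-responsive muscle isozyme, had lowest 2452, median 2628 and highest 2750.0 in MC4R-/- libraries, against 2778, 2564, 2684 and 2531 in WT replicates 1 to 4. Its log2 fold change of -0.02 ± 0.06 bounds the difference to between -9.49 and 7.67% (limma adjusted p = 0.958). Hk1, the widely expressed isozyme, had lowest 964, median 1020.1 and highest 1139 in MC4R-/- libraries, against 1105, 1138, 1019 and 1219 in WT replicates 1 to 4. The interval of the Hk1 difference was -16.1 to 2.82% (adjusted p = 0.688). Gpi1, which turns glucose 6-phosphate into fructose 6-phosphate, averaged 3605 ± 163 in MC4R-/- and 3718 ± 290.4 in WT.

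Phosphofructokinase, the committing step, has 3 isozymes. Pfkm, the muscle isozyme, had lowest 7319.7, median 7897 and highest 8424 in MC4R-/- libraries, against 8676, 8420.1, 7303 and 8125 in WT replicates 1 to 4. The MC4R-/- values sat inside the WT range, with an interval of the difference from -10.5 to 6.15% (limma adjusted p = 0.895). Pfkl, the liver-type isozyme (chromosome 10, 77986947 to 78009807), had lowest 950.1 (replicate 5), median 1166 and highest 1269 in MC4R-/- libraries, against 1061, 1033, 741 and 883 in WT replicates 1 to 4. For Pfkl 4 of the 6 MC4R-/- libraries lay above every WT library, and the lowest WT value came from the shallowest library. The means were 1129 ± 116 in MC4R-/- and 929 ± 148 in WT, a log2 fold change of 0.29 ± 0.10 (6.43 to 40.0%, adjusted p = 0.255). Without WT replicate 3 it was 0.18 (adjusted p = 0.496), and without WT replicate 2 and MC4R-/- replicate 5 together it was 0.39 (adjusted p = 0.028). Those libraries held the lowest MC4R-/- value and a WT value above the WT mean, so leaving out both widens the difference. They had stood apart in marker genes of these same data, so this pass is no separate support. Pfkp, the platelet-type isozyme, averaged 470.5 ± 91.9 in MC4R-/- and 407 ± 18.4 in WT (log2 fold change 0.19 ± 0.11, and 0.10 without MC4R-/- replicate 3). Its exons overlap those of Pitrm1 on the opposite strand, and no source used here gives the strand setting of the counting.

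In the middle of the pathway the group means differed by less than the range of the WT libraries. Aldoa had lowest 15195, median 15864 and highest 16199 in MC4R-/- libraries, against 16924, 18246, 14217 and 15156 in WT replicates 1 to 4. WT libraries thus lay on both sides of all MC4R-/- libraries. Gapdh had lowest 17978, median 19097 and highest 19949.8 in MC4R-/- libraries, against 20195, 20960.1, 16746 and 19285 in WT replicates 1 to 4, and its difference had an interval of -9.26 to 7.29% (limma adjusted p = 0.955). Tpi1, triose phosphate isomerase, averaged 5104 ± 269.9 in MC4R-/- and 4936 ± 239 in WT. Pgk1, which makes ATP from 1,3-bisphosphoglycerate, averaged 3038 ± 278 in MC4R-/- and 3186 ± 122 in WT. Processed copies of genes such as Gapdh, Tpi1, Pgk1, Eno1 and Ldha exist in the mouse genome, and no source used here gives how reads shared with them were assigned.

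The next pair of steps has a muscle isozyme each. Pgam2, muscle phosphoglycerate mutase, had lowest 3137, median 3241 and highest 3524 in MC4R-/- libraries, against 3226, 3207, 2594 and 3053 in WT replicates 1 to 4. Its log2 fold change was 0.12 ± 0.07 (limma adjusted p = 0.604), and the widely expressed Pgam1 was at 0.15 ± 0.09. Without WT replicate 3, the shallowest library, Pgam2 was at 0.05 (adjusted p = 0.852), and without MC4R-/- replicate 3 Pgam1 was at 0.10. Eno3, muscle enolase (chromosome 11, 70653125 to 70662513), had lowest 6897, median 7419 and highest 7993 in MC4R-/- libraries, against 9137, 9001, 7877 and 8028 in WT replicates 1 to 4. For Eno3 all MC4R-/- libraries but replicate 1 lay below every WT library. Its means were 7414 ± 440.3 in MC4R-/- and 8511 ± 649.9 in WT, a difference of -12.8% with an interval of -20.1 to -4.82% (log2 fold change -0.20 ± 0.06, adjusted p = 0.202). Leaving out each library in turn, the log2 fold change of Eno3 ran from -0.23 to -0.16 (limma adjusted p from 0.133 to 0.433). Eno1, the widely expressed enolase, averaged 628 ± 52.3 in MC4R-/- and 679 ± 109 in WT.

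At the end of the pathway, Pkm, pyruvate kinase, had lowest 8787, median 9038 and highest 9138 in MC4R-/- libraries, against 9186, 9456, 7414 and 8059 in WT replicates 1 to 4. The MC4R-/- libraries were tightly grouped inside the WT spread, with an interval of the difference from -3.17 to 15.7% (limma adjusted p = 0.735). Ldha, the muscle-type lactate dehydrogenase subunit (chromosome 7, 46842274 to 46855627), had lowest 3777 (replicate 5), median 4751 and highest 5009 in MC4R-/- libraries, against 4419, 4186, 3882 and 4074 in WT replicates 1 to 4. For Ldha 5 of 6 MC4R-/- libraries lay above every WT library, while MC4R-/- replicate 5, the one with the high atrial markers, lay below all of them. The means of 4604 ± 455 in MC4R-/- and 4140.0 ± 224 in WT gave a log2 fold change of 0.15 ± 0.07 (0.217 to 22.6%, adjusted p = 0.507). Without WT replicate 3 the Ldha value was 0.12 (limma adjusted p = 0.652), and without MC4R-/- replicate 2 also 0.12 (adjusted p = 0.712). Without MC4R-/- replicate 5 it was 0.20 (adjusted p = 0.14). Ldhb had lowest 10378, median 10674 and highest 10770.0 in MC4R-/- libraries, against 11361, 11438, 10624 and 10991 in WT replicates 1 to 4 (interval of the difference -10.9 to 3.14%, adjusted p = 0.761). Slc16a1, the main monocarboxylate carrier, averaged 1769 ± 227 in MC4R-/- and 1747 ± 104 in WT. Slc16a3 averaged 10.96 ± 2.67 in MC4R-/- and 8.09 ± 2.93 in WT, too few reads to bound the difference more tightly than -14.1 to 112%.

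**Figure D3:**
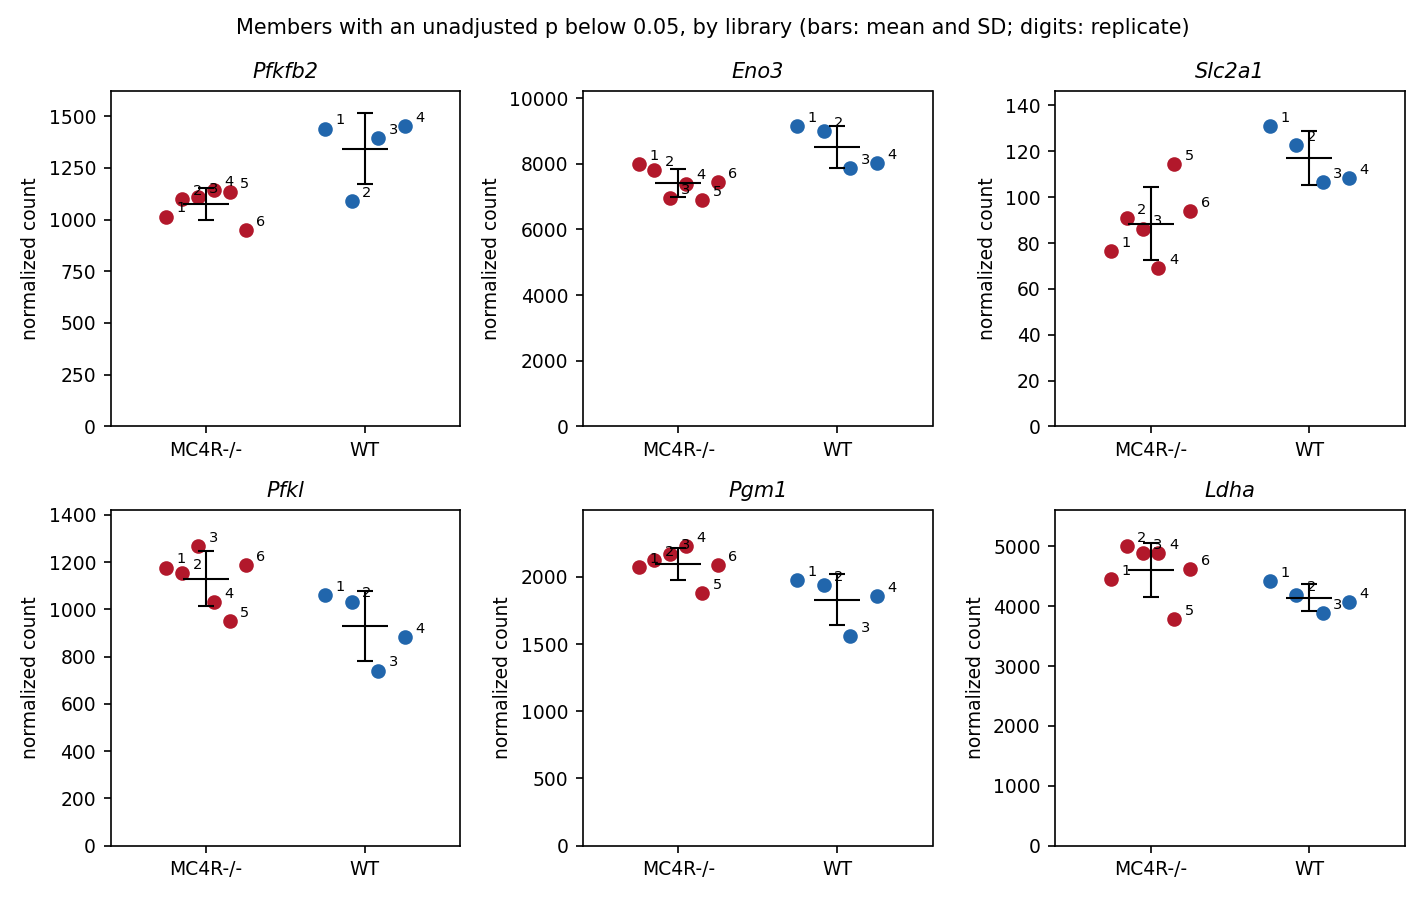
Normalized count (y axis) by genotype (x axis) for the 6 members with an unadjusted p below 0.05, 1 point per library with its replicate number, and bars for the mean and SD. In Pfkfb2 the WT replicate 2 point (1088) sits among the MC4R-/- points while the other WT points lie at 1393 to 1450.1. MC4R-/- replicate 5 is the lowest MC4R-/- point in Ldha and the highest in Slc2a1.

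Of the 5 regulators of fructose 2,6-bisphosphate, Pfkfb2 was lower in MC4R-/- and had the smallest p of all members (0.00059, unadjusted). Pfkfb2 encodes the heart isozyme of the kinase that makes this activator of phosphofructokinase, and lies on chromosome 1 from 130689043 to 130729253. Its normalized counts were lowest 948, median 1104 and highest 1144 in MC4R-/- libraries, against 1440.2, 1088, 1393 and 1450.1 in WT replicates 1 to 4. WT replicates 1, 3 and 4 lay above all MC4R-/- libraries, and WT replicate 2, the library with T-cell transcripts, lay among them. The means were 1075 ± 77.0 in MC4R-/- and 1343 ± 172 in WT, a difference of -19.6% with an interval of -28.3 to -9.82%. The log2 fold change of -0.31 ± 0.08 missed the threshold in limma (adjusted p = 0.0879) and in edgeR (adjusted p = 0.0947) and passed in DESeq2 (-0.32, adjusted p = 0.0234). Without WT replicate 2 it was -0.41 (limma adjusted p = 0.00243), and without WT replicate 4 the adjusted p was 0.281. With libraries weighted by their quality in limma it was -0.37 (adjusted p = 0.00528). Exons of Pfkfb2 overlap Yod1 on the opposite strand by 154 bases and the gene model Gm29427 on the same strand by 1262 bases, so some reads could belong to either.

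No other regulator approached the threshold. Pfkfb1, the isozyme best known from liver and skeletal muscle, had lowest 136, median 144 and highest 205 in MC4R-/- libraries, against 136, 189.6, 109 and 121 in WT replicates 1 to 4 (log2 fold change 0.20 ± 0.14, limma adjusted p = 0.721, and a log2 fold change of 0.36 without WT replicate 2 and 0.09 without WT replicate 3). Pfkfb3, the inducible isozyme with high kinase activity, had lowest 89.0, median 97.4 and highest 129 in MC4R-/- libraries, against 79.9, 133, 127 and 100.4 in WT replicates 1 to 4. Pfkfb4 had lowest 22.5, median 31.0 and highest 36.4 in MC4R-/- libraries, against 34.6, 36.1, 36.0 and 32.6 in WT replicates 1 to 4. Both groups overlapped for these genes, with log2 fold changes of -0.08 ± 0.14 for Pfkfb3 and -0.18 ± 0.18 for Pfkfb4. Tigar, a phosphatase that lowers fructose 2,6-bisphosphate, had lowest 562, median 604 and highest 642 in MC4R-/- libraries, against 546, 599, 588 and 654 in WT replicates 1 to 4, and its difference was bounded to -8.68 to 12.1%. Per kilobase, Pfkfb2 made up 75.7 ± 2.44% of the 4 Pfkfb transcripts in MC4R-/- and 80.3 ± 5.43% in WT.

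Of the 13 glycogen genes 12 were below a 1.2-fold change, where the share over all genes is 77.3%. Pgm1, the phosphoglucomutase that links glucose 1-phosphate and glucose 6-phosphate, was the member with the smallest p. It was matched by accession to the gene on chromosome 4 from 99929451 to 99987294, which older annotation calls Pgm2, and its exons overlap Itgb3bp on the opposite strand by 398 bases. Its normalized counts were lowest 1881 (replicate 5), median 2107 and highest 2231 in MC4R-/- libraries, against 1973, 1936, 1557 and 1854 in WT replicates 1 to 4. For Pgm1 5 of 6 MC4R-/- libraries lay above every WT library. The means were 2095 ± 120.2 in MC4R-/- and 1830.3 ± 189 in WT, a difference of 14.8% (3.73 to 27.0%; log2 fold change 0.20 ± 0.07, limma adjusted p = 0.297). Without WT replicate 3 the log2 fold change of Pgm1 was 0.12 (adjusted p = 0.576). Ugp2, which makes the UDP-glucose used for glycogen, averaged 2846 ± 466.5 in MC4R-/- and 2869 ± 344 in WT.

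For the enzymes that build glycogen the group means differed by less than the spread. Gys1, muscle glycogen synthase, had lowest 988, median 1052 and highest 1117 in MC4R-/- libraries, against 1039, 1182, 904 and 1015 in WT replicates 1 to 4, and the difference was bounded to -8.21 to 13.1% (limma adjusted p = 0.948). Gbe1, the branching enzyme, had lowest 405, median 464 and highest 554 in MC4R-/- libraries, against 513, 399, 467 and 427 in WT replicates 1 to 4 (adjusted p = 0.816). The libraries of both groups are interleaved for these genes. Gyg, the glycogenin that primes the particle, averaged 1167 ± 75.9 in MC4R-/- and 1162 ± 95.2 in WT.

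Glycogen breakdown uses a pair of phosphorylases, of which Pygm had 2788 normalized counts per kb in MC4R-/- and 2942 in WT, and Pygb 1958 in MC4R-/- and 1829 in WT. Pygm, the muscle isozyme, had lowest 7504, median 8036 and highest 8610.0 in MC4R-/- libraries, against 8949, 9191, 7721 and 7964 in WT replicates 1 to 4 (interval of the difference -13.0 to 3.55%, limma adjusted p = 0.752). Pygb, the brain isozyme, had lowest 7127, median 7593 and highest 8199 in MC4R-/- libraries, against 7485, 7082, 6469 and 7562 in WT replicates 1 to 4 (log2 fold change 0.10 ± 0.06, adjusted p = 0.65). Phosphorylase kinase switches these enzymes on. Its subunit Phkb had lowest 515, median 571 and highest 622 in MC4R-/- libraries, against 542, 456, 577 and 528 in WT replicates 1 to 4 (log2 fold change 0.11 ± 0.08, adjusted p = 0.702). The subunits Phka1 (log2 fold change 0.08 ± 0.08) and Phkg1 (-0.05 ± 0.14) had intervals that span 0.

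Ppp1r3c is a protein that brings protein phosphatase 1 to glycogen. It had lowest 772, median 1060.1 and highest 1715 (replicate 4) in MC4R-/- libraries, against 717, 813, 1135 and 984 in WT replicates 1 to 4. The means of 1124 ± 328 in MC4R-/- and 912 ± 185 in WT left the difference between -15.4 and 73.3% (limma adjusted p = 0.768), and without MC4R-/- replicate 4 its log2 fold change was 0.14 instead of 0.28. Ppp1r3a, the striated muscle targeting subunit, averaged 1076 ± 87.9 in MC4R-/- and 1065 ± 133 in WT. Epm2a, laforin, a glycogen phosphatase, averaged 79.9 ± 9.08 in MC4R-/- and 76.1 ± 9.12 in WT.

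**Figure D4:**
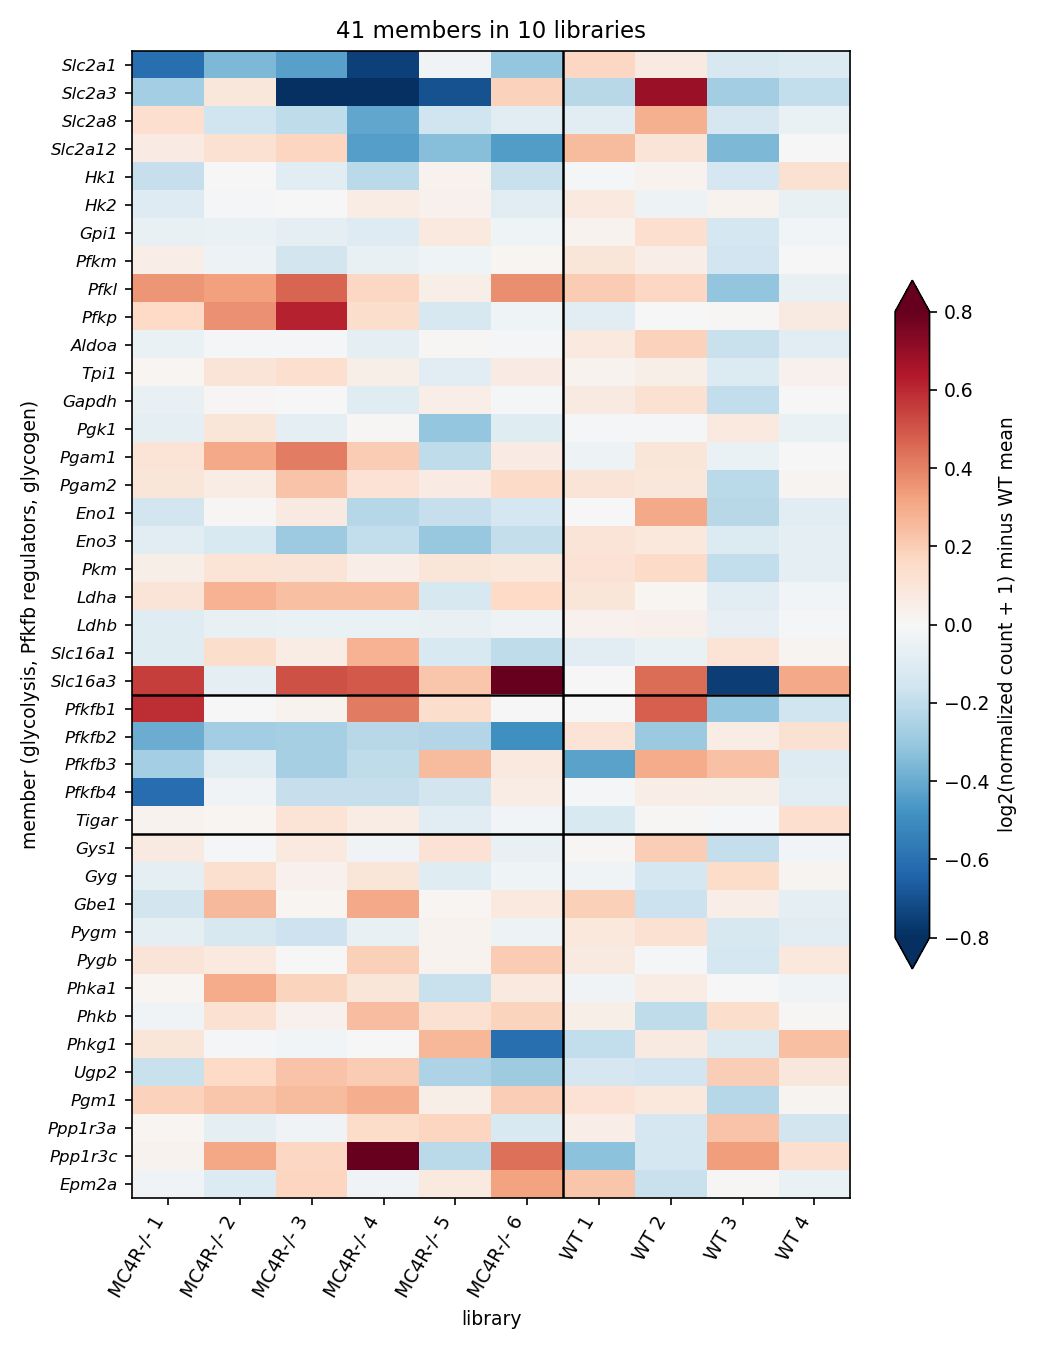
Log2(normalized count + 1) minus the WT mean (colour) for the 41 members tested (rows, in the order glycolysis, Pfkfb regulators, glycogen) in the 10 libraries (columns, MC4R-/- left of WT). The Pfkfb2 row is below the WT mean in all 6 MC4R-/- libraries and in WT replicate 2, and the WT replicate 3 column holds the lowest value of 13 of the 41 rows.

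Ratios of paired genes within a library do not depend on the scaling between libraries, and 10 were compared by exact two-sided permutation tests of the 2 genotype labels (210 arrangements), with a smallest possible p of 0.00476. After Benjamini-Hochberg adjustment over the 10 ratios, 0 passed 0.05, and 3 had an unadjusted p below it. The log2 ratio of Pfkm to Pfkl was 2.84, 2.77, 2.53, 2.91, 3.06 and 2.78 in MC4R-/- replicates 1 to 6, against 3.03, 3.03, 3.30 and 3.20 in WT replicates 1 to 4. All MC4R-/- libraries but replicate 5 lay below every WT library, with a difference of -0.32 (exact permutation p = 0.0238, adjusted p = 0.143). For Ldha over Ldhb the log2 ratio was -1.22, -1.09, -1.13, -1.13, -1.50 and -1.22 in MC4R-/- replicates 1 to 6, against -1.36, -1.45, -1.45 and -1.43 in WT replicates 1 to 4. Again replicate 5 was the exception among MC4R-/- libraries, here the lowest of all, and the difference was 0.21 (exact permutation p = 0.0429, adjusted p = 0.143). Pygm over Pygb was 0.06, 0.03, 0.07, -0.01, 0.24 and 0.00 in MC4R-/- replicates 1 to 6, against 0.26, 0.38, 0.26 and 0.07 in WT replicates 1 to 4, a difference of -0.17 (exact permutation p = 0.0333, adjusted p = 0.143).

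MC4R-/- replicate 5 decides the number of ratios that pass. Without it 4 ratios passed, namely Pfkm/Pfkl (-0.37), Ldha/Ldhb (0.27) and Pygm/Pygb (-0.21), each with an exact permutation p = 0.00794 and adjusted p = 0.0265, and Slc2a4/Slc2a1 (0.37, exact permutation p = 0.0159, adjusted p = 0.0397). Replicate 5 was the only MC4R-/- library to reach the WT values in these 4 ratios, so without it the groups no longer overlap. The exact permutation p = 0.00794 is then the smallest that the test can give, and these passes are no separate support. With all libraries the ratio of Slc2a4 (GLUT4, the insulin-responsive transporter) to Slc2a1 differed by 0.29 (adjusted p = 0.152). The remaining differences were -0.51 for Pfkfb2/Pfkfb1, 0.10 for Gys1/Pygm, -0.42 for Slc16a1/Slc16a3, 0.09 for Hk2/Hk1, -0.09 for Eno3/Eno1 and -0.03 for Pgam2/Pgam1, with adjusted p from 0.152 to 0.814. Per kilobase, Pfkl was 9.31 ± 0.959% of the 3 phosphofructokinase transcripts in MC4R-/- and 7.62 ± 0.677% in WT, and Pfkm was 86.4 ± 1.79% in MC4R-/- and 88.7 ± 0.326% in WT. Ldha was 26.2 ± 1.92% of the Ldha and Ldhb transcripts in MC4R-/- and 23.4 ± 0.529% in WT. Pygb was 41.3 ± 1.55% of the Pygm and Pygb transcripts in MC4R-/- and 38.4 ± 2.04% in WT.

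**Figure D5:**
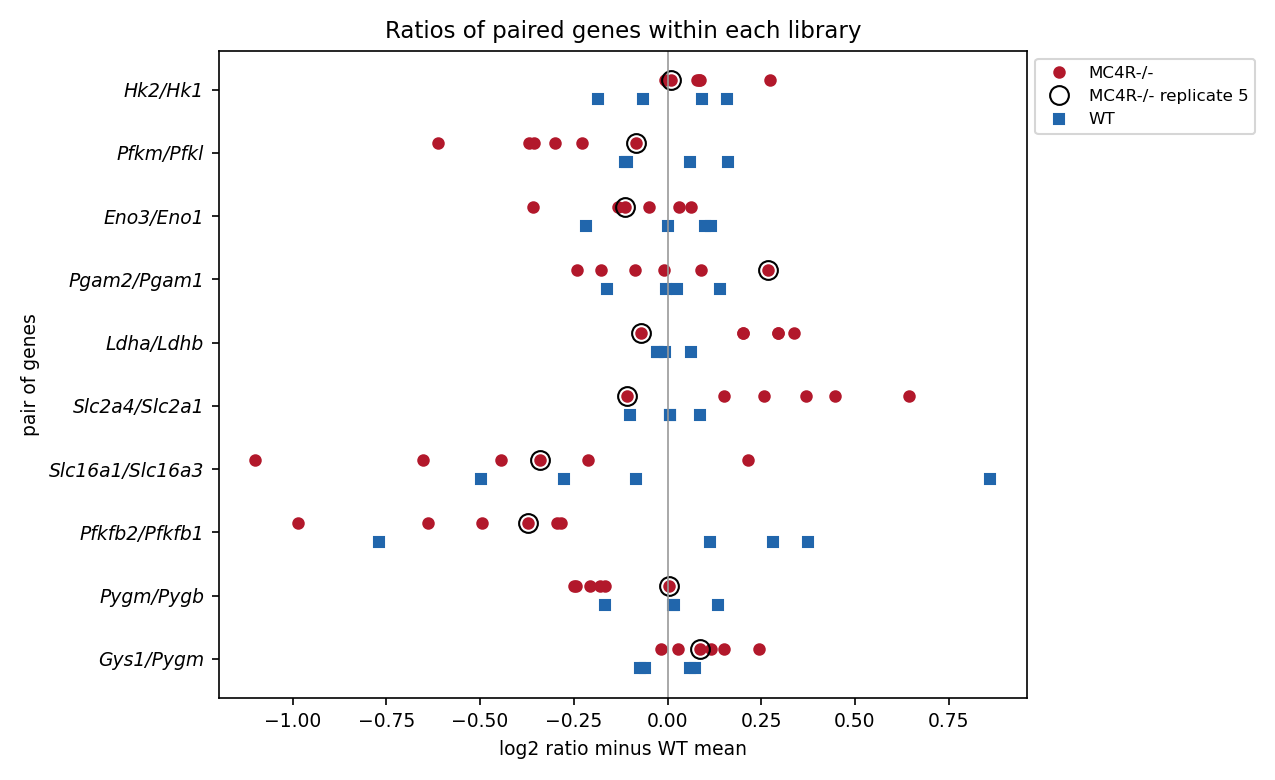
Log2 ratio of paired genes minus the WT mean (x axis) for 10 pairs (y axis), circles for MC4R-/- libraries above squares for WT libraries, with MC4R-/- replicate 5 ringed. In Pfkm/Pfkl, Ldha/Ldhb, Slc2a4/Slc2a1 and Pygm/Pygb the ringed point is the MC4R-/- point furthest to the WT side.

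Genes around these pathways, were counted by role. Of 24 other glycolysis and carrier genes 18 were tested and 0 passed in limma, edgeR or DESeq2, with 3 at an unadjusted p below 0.05 (background 9.6%, with 0.459% called by limma, for this list and those that follow). Slc16a7, a high-affinity monocarboxylate carrier, averaged 18.6 ± 6.34 in MC4R-/- and 33.3 ± 6.19 in WT (log2 fold change -0.85 ± 0.25, limma adjusted p = 0.148). Fbp2, muscle fructose bisphosphatase, averaged 293 ± 34.4 in MC4R-/- and 233 ± 49.3 in WT (adjusted p = 0.263), and Galm, galactose mutarotase, 224 ± 18.8 in MC4R-/- and 183 ± 16.6 in WT (adjusted p = 0.231). Of 24 other glycogen genes 23 were tested, 0 passed in any of the 3 tools, and 2 had an unadjusted p below 0.05, the phosphatase subunits Ppp1ca (log2 fold change -0.15) and Ppp1r3d (0.26). The third by p was Pgm2l1 (-0.27). Among 18 genes of the pentose phosphate and hexosamine branches 0 passed in any tool and 2 had an unadjusted p below 0.05, namely Ogt (-0.19), which attaches N-acetylglucosamine to proteins, and Gfpt2 (0.31), an entry enzyme of hexosamine synthesis. Sord (-0.11), sorbitol dehydrogenase, followed. Of 9 AMPK subunits and kinases 0 passed in any tool and 2 had an unadjusted p below 0.05. Prkab2, a regulatory subunit of this energy sensor, ran from 538 to 632 in MC4R-/- and from 465 to 534 in WT libraries without overlap (background 2.28%; log2 fold change 0.20, limma adjusted p = 0.31), Prkab1 was at -0.21 and Prkag3 at 0.40.

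Of 14 transcription factors and oxygen sensors of carbohydrate metabolism 1 passed in limma (background 0.459%), and 1 in edgeR and DESeq2, with 4 at an unadjusted p below 0.05 (background 9.6%). Ppargc1a (PGC-1α, a coactivator of mitochondrial genes) fell to 754.6 ± 67.9 in MC4R-/-, against 1094 ± 16.5 in WT (log2 fold change -0.54 ± 0.07, limma adjusted p = 0.000316). Its libraries ran from 653 to 860.0 in MC4R-/- and from 1072 to 1112 in WT. Egln3, an oxygen-sensing prolyl hydroxylase, averaged 898 ± 196 in MC4R-/- and 586 ± 79.8 in WT (log2 fold change 0.59 ± 0.18, adjusted p = 0.288). Klf15, a factor that induces Slc2a4 in muscle, averaged 325 ± 66.5 in MC4R-/- and 431 ± 62.5 in WT (-0.42 ± 0.14, adjusted p = 0.288).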

How the data were processed

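Poly(A) RNA libraries were made from 200 ng of total RNA with an integrity number above 7 with a stranded KAPA kit, per the labels' protocols. The submitters' processing notes name Cufflinks 2.2.1 with Cuffnorm 2.2.1.1 and Cuffdiff 2.2.1.3, TopHat2 2.1.0 with Bowtie2, bcl2fastq and the build mm10. What each tool did, the annotation and the counting's strand setting are not given in the sources. The deposited signal values equal each gene's reads over a library-specific scale: 99.99 to 100% of those above 0 came out whole, within 0.1, when divided by what 1 read is worth. They are not divided by gene length.

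All 10 columns were used, and 23984 of 24160 rows matched a symbol. The total of recovered reads, 4145033 to 6425785 per library, sets the precision for low genes. MC4R-/- was compared with WT with limma 3.58.1 (R 4.3.3; a linear model with trended, robust empirical Bayes variances) on log2(normalized count + 1), for 14611 genes with a mean of at least 1, with two-sided p-values adjusted by Benjamini-Hochberg. Fold changes on this scale understate those of low genes. Levels carry SDs over libraries and fold changes carry SEs. Ratios were compared by exact permutation (Python 3.11.15, scipy 1.17.1). Alternatives included edgeR 4.0.16 and DESeq2 1.42.0 on whole reads, other scalings, pseudocounts and filters, library weights and leaving out libraries. The procedure was tested on simulated data. Members and lists were chosen with earlier results of these data known. For up to 5 members of each list with the smallest p and for chosen anchor genes, every WT value is given. The MC4R-/- libraries of these genes are summarised by lowest, median and highest. Up to 3 genes of each further list are named. Promoters and transcript lengths come from RefSeq and GENCODE tables of GRCm38.p6. Each gene's length is the median over its matched transcripts, whichever are expressed, so levels and shares per kilobase depend on that choice.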

Additional observations from a re-analysis of the deposited data

Results flagged for a closer look

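Single libraries stood apart from the rest of their group in 8 of 102 groups of values searched with Dixon's test, where chance gives about 1 in 20. Among glycolysis genes, Slc2a3 had 33.4 normalized counts in WT replicate 2, against 16.6 to 17.6 in the other WT libraries. Gpi1 had 3918 in MC4R-/- replicate 5, against 3451 to 3617 in the other MC4R-/- libraries. Tpi1 had 4579.7 in WT replicate 3, against 5036 to 5087 in the other WT libraries, and Ldhb had 10378 in MC4R-/- replicate 1, against 10640 to 10770.0 in the others of its group. Pfkfb2 had 1088 in WT replicate 2, against 1393 to 1450.1 in the other WT libraries.

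Among the ratios, log2 Hk2/Hk1 was 1.51 in MC4R-/- replicate 4, against 1.23 to 1.32 in the other MC4R-/- libraries. In MC4R-/- replicate 5 the log2 ratio of Ldha to Ldhb was -1.50, against -1.22 to -1.09 in the others of its group, and that of Pygm to Pygb was 0.24, against -0.01 to 0.07. WT replicate 2 is the library with T-cell transcripts and Xist, and MC4R-/- replicate 5 the one with the highest atrial markers. The part of either in these values was not tested.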

How the results depend on the processing

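The 41 members were refitted under 24 alternatives, except that Slc16a3 fell below a minimum mean of 10. Of 983 values 938 kept their direction and side of the threshold, 5 passed it, and 40, from 13 members with main log2 fold changes up to 0.104 in size, changed sign without a call, while 28 members kept 1 sign throughout. Other scalings moved the median of all genes by less than 0.1. WT replicate 2 and MC4R-/- replicate 5 stood apart in marker genes of these same data. Without both, the count of glycolysis members that passed was 1 (Pfkl). The count of Pfkfb regulators that passed was 1 (Pfkfb2) there, 1 with library weights, 1 with DESeq2, and 0 to 1 when leaving out each library. Glycogen members stayed at 0 in these settings. Over all genes the count of 67 became 0 with limma without trend and robust steps, 118 with library weights, 122 with DESeq2, 168 without that pair of libraries, and 26 to 117 when leaving out each library. With edgeR it was 50 over all libraries and 37 without WT replicate 3, an alternative chosen after seeing the data. Ratios that passed ranged from 0 to 4 when leaving out each library. The cause was not tested. With the replicate block 52 genes passed, and the adjusted p of Pfkfb2 was 0.333. Same-numbered samples did not deviate together (r of -0.125, -0.152, -0.277 and -0.075 over 9164 genes). With other numbers r ran from -0.2287 to 0.165, -0.1306 to 0.140, -0.1427 to 0.388 and -0.0695 to 0.154 for WT replicates 1 to 4. The values thus showed no pairing by number but cannot exclude one, and the labels state none. MC4R-/- replicates 5 and 6 have no WT library of the same number. Depth limits Slc16a3, Slc2a3 and Pfkfb4, and the mean of Aldoc was too low for the main fit, though not for every alternative.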

Other observations

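The lowest and highest values of the members fell unevenly over the libraries. WT replicate 3, the shallowest library, was the lowest of all 10 libraries for 13 of 41 members (31.7%), 9 of them in the glycolysis list, against 15.9% of 9164 genes with a mean of at least 50. WT replicate 2 was the highest for 11 of 41 members, 8 of them in the glycolysis list, against 17.0% of those genes. The coefficient of variation was larger in WT for 26 of 41 members (63.4%), against 55.2% of the same 9164 genes. It was 1.69% in MC4R-/- and 11.2% in WT for Pkm, 2.23% in MC4R-/- and 11.2% in WT for Aldoa, and 3.63% in MC4R-/- and 9.5% in WT for Gapdh, while it was 9.16% in MC4R-/- and 3.82% in WT for Pgk1 and 9.88% in MC4R-/- and 5.42% in WT for Ldha. These are descriptions of 6 and 4 libraries, and the difference in spread was not tested.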
